A study of Mus musculus with 69 samples.

Results

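The genes described here are Ppara, Ppargc1a, Ppargc1b, Pdk4, Angptl4, Cyp4a10 and Cyp4a14, which encode the fatty acid receptor PPAR-alpha, its coactivators and targets that respond to fasting. They were picked by symbol from kidney RNASeq counts. All 7 were present among 24538 listed symbols, 24523 of which had values, and all 7 passed the filter on low counts in every comparison. The smallest count of any of them in a library was 148 reads, for Angptl4, and the largest was 34957 reads, for Cyp4a14. Whole kidneys came from NZB/W F1 mice, a hybrid strain that develops lupus nephritis on its own. Young mice (n = 30) were 12 weeks old and without nephritis. Nephritic mice (n = 27) were older and were collected 2 to 3 weeks after proteinuria passed 300 mg/dl, before blood urea nitrogen passed 25. Remission mice (n = 8) had been nephritic, received cyclophosphamide (50 mg/kg, 1 dose) with CTLA4Ig (200 ug) and anti-CD40L (250 ug) in 6 doses over 2 weeks, and were collected 8 weeks later at a proteinuria of at most 30 mg/dl. Age and nephritis therefore cannot be told apart between young and nephritic mice, nor can remission be told apart from drug treatment. The remission mice were sequenced in a later run, which held no other mice than 4 repeats of young and nephritic libraries, so in the main comparisons run and remission cannot be told apart. Time is given as Zeitgeber time (ZT), with lights on at ZT0 and off at ZT12. Young mice numbered 7, 4, 4, 7, 4 and 4 at ZT0, 4, 8, 12, 16 and 20, nephritic mice 7, 4, 4, 6, 3 and 3, and remission mice 4 at ZT0 and 4 at ZT12.

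PPAR-alpha is a nuclear receptor that binds fatty acids, pairs with RXR and switches on genes for fatty acid uptake, oxidation and ketone formation when food is withheld. PGC-1alpha (Ppargc1a) and PGC-1beta (Ppargc1b) are coactivators that join PPAR-alpha and other nuclear receptors on genes of mitochondrial metabolism. In the kidney these genes are best known from the proximal tubule, a segment that depends on fatty acid oxidation for its energy. Mice eat mostly in the dark, so transcripts of this pathway can follow the daily alternation of fasting and feeding. Food intake is not among the values used here.

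The genes lie on several chromosomes of the mm10 (GRCm38) genome in the GENCODE vM21 annotation. Ppara lies at chr15:85734983-85802819 on the plus strand, Ppargc1a at chr5:51454250-51567726 on the minus strand, Pdk4 at chr6:5483351-5496309 on the minus strand and Angptl4 at chr17:33773750-33781830 on the minus strand. Cyp4a10 (chr4:115518264-115533649, plus strand) and Cyp4a14 (chr4:115486200-115496142, minus strand) are neighbours in a cluster of related genes. Their coding sequences, 1527 and 1521 bases long, were 75.8% identical. The 90 bases of coding sequence where the pair is most alike are shown because reads were counted only if they aligned to a single place, and the differing bases are what separates the counts. They cover bases 923 to 1012 of Cyp4a10 and 917 to 1006 of Cyp4a14, counted from the start codon, with the 8 bases that differ in capitals:

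Cyp4a10: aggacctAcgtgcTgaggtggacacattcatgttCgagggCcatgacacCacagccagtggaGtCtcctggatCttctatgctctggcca

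Cyp4a14: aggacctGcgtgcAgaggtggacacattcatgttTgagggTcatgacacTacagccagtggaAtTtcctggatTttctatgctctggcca

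Even there, a read of 150 bases covers several differences. Of 1378 stretches of 150 bases in the Cyp4a10 coding sequence, 85 (6.17%) were also present in Cyp4a31 or Cyp4a32, so reads from those stretches cannot be assigned. Of 1372 such stretches of Cyp4a14, 0 were found in a transcript of another annotated gene. Levels of Cyp4a10 are uncertain on this account. Only exact matches of coding stretches were counted, whereas the methods also accepted reads with mismatches. Neither share is therefore a full measure of ambiguous reads.

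Total counts were 25257530 to 35744843 per young library, 26596500 to 48075977 per nephritic library and 13311278 to 21849912 per remission library. Levels are given as CPM (counts scaled to a common library size) after TMM scaling over the 65 original libraries. CPM is not per length and is not compared between genes. All 12 proximal tubule markers were detected in these libraries. In whole kidney, fewer cells of a type and less RNA per cell cannot be told apart. The clock gene Arntl stood apart from the time label in 2 libraries. Remission mouse s9, labelled ZT12, had 27.3 CPM of Arntl, where the other ZT12 remission mice had 3.24 to 4.93 CPM and the ZT0 remission mice 22.9 to 28.9 CPM. Nephritic mouse RX10RU, labelled ZT8, had 18.4 CPM, where the other ZT8 nephritic mice had 2.08 to 3.76 CPM. Several results that rest on these mice are given with and without them, and the others include them. Young ZT0 mouse CR6LL was high in Angptl4 and Pdk4 but its Arntl (49.9 CPM) was close to that of another ZT0 mouse (49.7 CPM). Of 4 repeat libraries, 3 correlated best with their own original library (r = 0.991 to 0.994 across genes of log2 CPM). The repeat of nephritic mouse RX11RU correlated better with mouse RX11LU (r = 0.991) than with its own original (r = 0.978). That repeat had 18.7 CPM of Pdk4 and 22.3 CPM of Angptl4, where the original, used at ZT12, had 83.8 and 60.4 CPM on the scale of all libraries. Repeats enter only the alternatives.

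In young kidneys, 6 of the 7 genes varied over the 6 time points. Ppara was highest at ZT8, in the later part of the rest phase, Angptl4 at ZT12, when lights went off, and Pdk4, Cyp4a10 and Cyp4a14 in the dark phase. Ppargc1a varied by little, and Ppargc1b did not pass. In nephritic kidneys 0 of the 7 genes passed the same test. For each of the 7, the SD of log2 CPM left after fitting time point and sequencing set was larger than in young mice. At single time points, though, some nephritic groups were the tighter ones. The test was edgeR's quasi-likelihood F test over time points, in a model that also held the sequencing set. P-values were adjusted by Benjamini and Hochberg's method over all genes tested, with 0.05 as the limit. Variation over time was common, since 39.8% of all genes tested passed in young mice (6583 of 16521) and 21.6% in nephritic mice (3646 of 16872). Of the 7 genes in nephritic mice, 0 also had an unadjusted p under 0.05, and DESeq2 called 0. When young and nephritic mice were fitted together, with a shared estimate of the spread, 2 of the 7 passed in young mice, Ppara (adjusted p = 0.0202) and Angptl4 (adjusted p = 0.000453, edgeR).

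**Figure D1:**
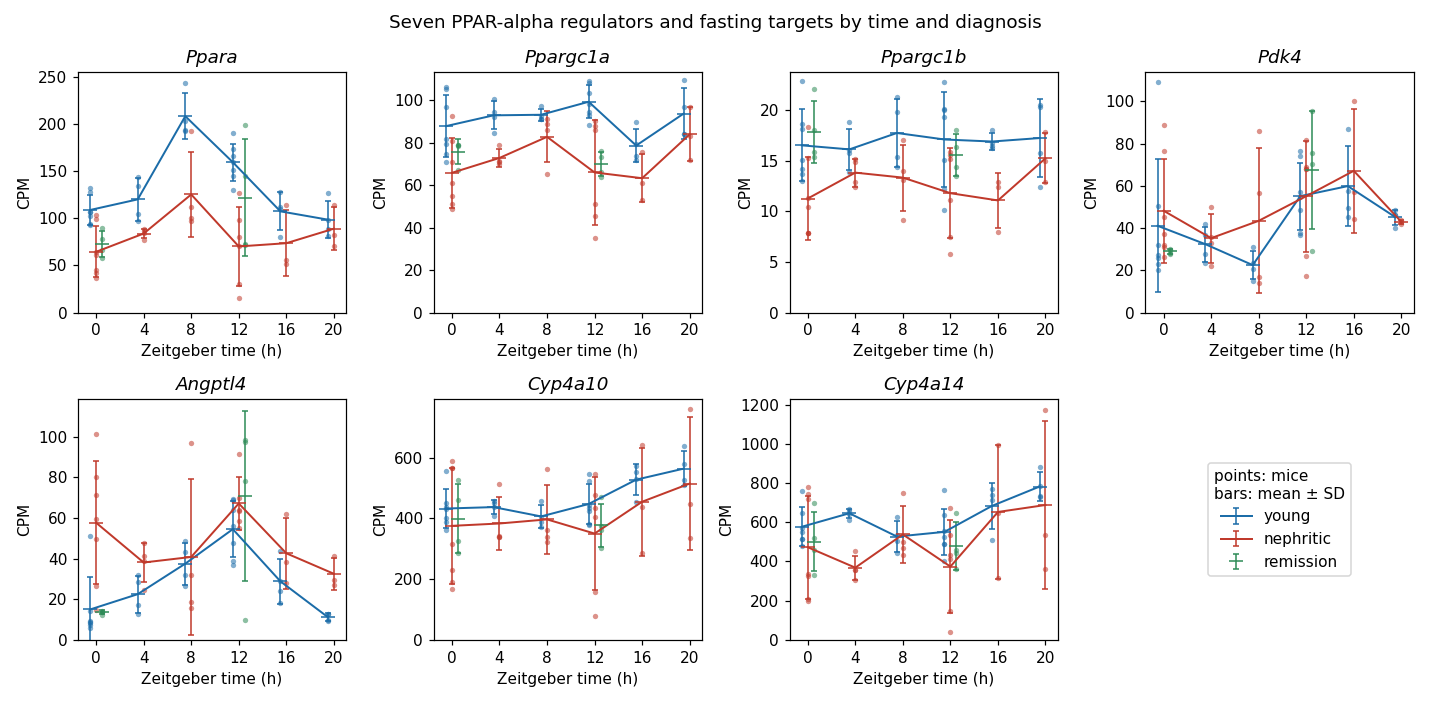
Level in CPM (vertical axis from 0, a different scale in each panel) of each gene against Zeitgeber time in hours, with 1 point per mouse and bars at the mean ± SD for young, nephritic and remission mice, and lower bars ending at 0 where the SD is larger than the mean. Young Ppara is highest at ZT8 (208 CPM) and young Angptl4 at ZT12 (54.5 CPM), while the nephritic points of one time are widely spread.

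Ppara, the receptor itself, was 92.7 to 132 CPM (median 106) in young mice at ZT0. It was 97.6, 104, 134 and 144 CPM in the ZT4 mice and 193, 193, 203 and 244 CPM in the ZT8 mice. At ZT12 it was 130 to 191 CPM (median 160), at ZT16 it was 79.7, 110, 112 and 128 CPM, and at ZT20 it was 81.4, 88.3, 97.9 and 126 CPM. Every ZT8 mouse was thus above every young mouse of the other times, with means of 208 ± 24.2 (SD, n = 4) at ZT8 and 98.5 ± 19.8 (SD, n = 4) at ZT20. The variation passed (adjusted p = 5.73e-06, edgeR). A 24 h cosine fitted to log2 CPM had an amplitude of 0.48 ± 0.07 (SE) and a peak at 8.75 h. In nephritic mice the ZT8 group also had the highest mean, 125 ± 45.2 CPM (SD, n = 4), with values of 96.6, 100, 112 and 192 CPM. These overlapped with other times, such as 15.9 to 126 CPM (median 75.0) at ZT12, and the test did not pass (adjusted p = 0.539). The nephritic cosine amplitude was 0.23 ± 0.19 (SE). The SD of the residuals, after time point and set were fitted, was 0.60 on the log2 scale in nephritic against 0.23 in young mice.

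The coactivators moved little over the day. Ppargc1a means at the young time points lay between 78.7 ± 7.90 CPM (SD, n = 4) at ZT16 and 99.4 ± 7.84 CPM (SD, n = 7) at ZT12, and the variation passed (adjusted p = 0.0213, edgeR). Its cosine amplitude was only 0.08 ± 0.04 (SE). It did not pass without the set covariate (adjusted p = 0.10) or with 24 h cosine and sine terms in place of separate time points (adjusted p = 0.28). Ppargc1b means in young mice stayed between 16.1 ± 2.03 (SD, n = 4) and 17.8 ± 3.37 CPM (SD, n = 4), and the test did not pass (adjusted p = 0.50). In nephritic mice neither coactivator passed (adjusted p = 0.637 for Ppargc1a and 0.729 for Ppargc1b).

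Angptl4 encodes a secreted inhibitor of lipoprotein lipase and is a sensitive fasting target of PPAR-alpha. It had the largest daily range of the 7 genes in young mice. At ZT0 it was 6.07 to 14.3 CPM in 6 of the 7 young mice (median of all 7, 9.04) and 51.0 CPM in mouse CR6LL. It was 12.6, 17.1, 28.4 and 31.9 CPM at ZT4 and 26.3, 31.7, 43.5 and 48.6 CPM at ZT8. These values climbed with each light-phase time point towards 36.6 to 69.3 CPM (median 56.3) at ZT12. In the dark they were 18.1, 24.1, 29.1 and 44.0 CPM at ZT16 and 9.07, 10.02, 12.7 and 12.9 CPM at ZT20. The test passed (adjusted p = 0.000336, edgeR), with a cosine amplitude of 1.17 ± 0.15 (SE) on the log2 scale and a peak at 10.7 h.

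In nephritic mice Angptl4 did not have this low point around lights on. It was 14.8 to 101 CPM (median 59.3) at ZT0 and 55.1 to 91.5 CPM (median 63.8) at ZT12. It was 24.7, 38.7, 41.1 and 47.8 CPM at ZT4, 27.9, 38.2 and 61.8 CPM at ZT16, and 26.8, 29.3 and 41.5 CPM at ZT20. At ZT8 it was 15.7, 18.5 and 32.0 CPM in 3 mice and 97.1 CPM in mouse RX10RU, which stood apart in Arntl. Each nephritic mouse at ZT0 was above every young ZT0 mouse other than CR6LL, and each nephritic mouse at ZT20 was above every young ZT20 mouse. The nephritic test over time did not pass (adjusted p = 0.385; 0.0569 without RX10RU), and the cosine amplitude was 0.19 ± 0.22 (SE).

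Pdk4 encodes a kinase that shuts pyruvate dehydrogenase and so spares glucose in fasting. In young mice it was lowest at ZT8, with 15.0, 20.7, 23.4 and 31.0 CPM, and highest at ZT16, with 45.1, 49.7, 57.8 and 87.1 CPM. At ZT0 it was 19.99 to 50.4 CPM in 6 of 7 mice and 109 CPM in CR6LL, and at ZT12 it was 36.9 to 76.7 CPM (median 54.7). The ZT8 and ZT16 mice did not overlap, and the variation passed (adjusted p = 0.0154, edgeR). The cosine amplitude was 0.60 ± 0.15 (SE) with a peak at 16.5 h, later than the Angptl4 peak. Nephritic mice had a fitted peak at nearly the same hour (17.3 h, amplitude 0.40 ± 0.23, SE), but their values at ZT8 were 14.003, 17.1, 56.9 and 86.0 CPM, which overlapped with 44.2, 57.045 and 100 CPM at ZT16, and the test did not pass (adjusted p = 0.569).

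Adipocyte markers moved with the same hours. All 8 varied over time in young and in nephritic mice, and their summed level in young mice was 70.5 to 201 CPM at ZT8 and 419 to 792 CPM at ZT16. Pdk4 and Angptl4 are also expressed in fat. With the mean log2 CPM of the adipocyte markers as a covariate, Pdk4 no longer passed in young mice (adjusted p = 0.155), and the other 5 still did. Adrenal cortex markers were also uneven. All 7 varied over time in both groups, with sums of 4.53 to 2320 CPM over all young mice (median 8.10) and 6.14 to 1591 CPM over all nephritic mice (median 7.21). The high nephritic sum was that of ZT0 mouse RX10LU alone, and the next highest was 15.2 CPM, in mouse RX10RU. The part of adrenal tissue in these results was not tested.

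Cyp4a10 and Cyp4a14 encode microsomal omega-hydroxylases, which oxidise the far end of fatty acids, including arachidonic acid in the tubule, and are classic PPAR-alpha targets. In young mice both were lowest at ZT8 and highest at ZT20. Cyp4a10 was 373, 389, 404 and 458 CPM at ZT8 and 511, 527, 577 and 639 CPM at ZT20. Cyp4a14 was 444, 503, 533 and 629 CPM at ZT8 and 727, 733, 784 and 884 CPM at ZT20. The ZT8 and ZT20 mice did not overlap for either gene, but the excursions were small, with cosine amplitudes of 0.21 ± 0.05 and 0.20 ± 0.07 (SE) and peaks at 18.1 h and 19.7 h. Both passed (adjusted p = 0.0156 and 0.0447, edgeR). The Cyp4a14 call was fragile, since it held in 11 of the 30 fits that each left out 1 young mouse. The highest adjusted p was 0.111, without mouse ZT20RU. Nephritic values ranged more widely at a single time, for example 337, 448 and 758 CPM for Cyp4a10 and 359, 533 and 1172 CPM for Cyp4a14 at ZT20, and neither passed (adjusted p = 0.874 and 0.554).

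A gene that passes in one group and not in the other has not been shown to differ between them, so the difference in time course was tested in a joint fit of young and nephritic mice. None of the 7 genes passed (0 of 7), against 6.27% of all genes tested (1099 of 17521). Angptl4 came closest, with a p of 0.0171 and an adjusted p of 0.111 (edgeR), and the other 6 had adjusted p-values from 0.367 (Ppara) to 0.961 (Cyp4a10). It was the 1 gene of the 7 with an unadjusted p under 0.05. Angptl4 passed without RX10RU (adjusted p = 0.0262, edgeR) and with DESeq2 (adjusted p = 0.0495). In the second sequencing set alone it passed as well (adjusted p = 0.0125, edgeR), where the first set held 6 young and 5 nephritic mice. It also passed without CR6LL (adjusted p = 0.00741), a mouse singled out by its Angptl4 level.

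Averaged over the day, nephritic kidneys had less Ppara, Ppargc1a, Ppargc1b and Cyp4a14 RNA and more Angptl4 RNA than young kidneys. The receptor and its coactivators were lower by 0.40 to 0.77 on the log2 scale, and Angptl4 was higher by 0.91. Pdk4 and Cyp4a10 did not pass. The test was the group term of the joint fit, with time point and set as covariates. So many genes differed in level that 4 lower genes and 1 higher gene of 7 are to be read against 33.9% of all genes lower and 28.1% higher.

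Ppara was 15.9 to 192 CPM (median 82.3) in nephritic mice and 79.7 to 244 CPM (median 128) in young mice. The ranges overlapped, and the difference of -0.77 ± 0.13 (log2, SE) passed (adjusted p = 8.3e-07, edgeR). Ppargc1a was 35.1 to 97.1 CPM (median 71.5) against 70.8 to 110 CPM (median 92.5), a difference of -0.40 ± 0.07 (adjusted p = 4.98e-06). Ppargc1b was 5.75 to 18.3 CPM (median 12.9) against 10.2 to 22.9 CPM (median 16.4), a difference of -0.48 ± 0.10 (adjusted p = 3.02e-05). Of the 27 nephritic mice, 12 were below the lowest young mouse for Ppara, 11 for Ppargc1a and 7 for Ppargc1b, and 0 were above the highest.

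Angptl4 was 14.8 to 101 CPM (median 47.8) in nephritic mice and 6.07 to 69.3 CPM (median 27.4) in young mice, a difference of 0.91 ± 0.21 (adjusted p = 0.000179, edgeR). Cyp4a14 was 41.1 to 1172 CPM (median 433) against 402 to 884 CPM (median 621), a difference of -0.39 ± 0.16 (adjusted p = 0.0261), and the nephritic range extended past the young range at both ends. Cyp4a10 was 79.5 to 758 CPM (median 362) against 360 to 639 CPM (median 447), a difference of -0.26 ± 0.12 that did not pass (adjusted p = 0.0604). Pdk4 was 14.003 to 100 CPM (median 43.8) against 15.0 to 109 CPM (median 41.0), a difference of 0.21 ± 0.17 (adjusted p = 0.306). In the second set alone Pdk4 passed (0.43, adjusted p = 0.0156) and Cyp4a14 did not (-0.26, adjusted p = 0.104).

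The lower levels went along with less proximal tubule RNA. All 12 proximal tubule markers were lower in nephritic mice, with a summed level of 2159 to 14965 CPM against 12072 to 18689 CPM in young mice. With the mean log2 CPM of these markers as a covariate, the differences of Ppara (-0.24, adjusted p = 0.146), Ppargc1a (-0.04, adjusted p = 0.667), Ppargc1b (-0.10, adjusted p = 0.526) and Angptl4 (0.57, adjusted p = 0.116) no longer passed. Relative to the markers, Cyp4a10 was higher in nephritic mice (0.34, adjusted p = 0.00536), and Cyp4a14 was at 0.26 (adjusted p = 0.185). Immune markers (8 of 8) and injured tubule markers (6 of 6) were higher in nephritic mice, with summed immune markers of 31.8 to 707 CPM against 14.4 to 32.4 CPM. Their part in these differences was not tested.

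Differences between nephritic and young mice were also read at each time point, with the caveat that the time courses were not shown to differ (adjusted p = 0.111 for Angptl4 and 0.367 for Ppara, edgeR). For Angptl4 at ZT0 nephritic mice were higher by 2.00 ± 0.39 (log2, SE; adjusted p = 8.4e-05, edgeR), and at ZT12 the difference was 0.32 ± 0.38 (adjusted p = 0.499). Ppara was lower at both times, with -0.79 ± 0.24 at ZT0 (adjusted p = 0.00853, edgeR) and -1.32 ± 0.27 at ZT12 (adjusted p = 7.34e-05). Ppargc1a was lower at ZT0 (-0.44 ± 0.15, adjusted p = 0.014) and ZT12 (-0.60 ± 0.15, adjusted p = 0.00114), as was Ppargc1b (-0.59 ± 0.20, adjusted p = 0.016, and -0.57 ± 0.21, adjusted p = 0.0229). Thus 4 of 7 genes passed at ZT0 and 3 of 7 at ZT12, where 39.5% and 50% of all genes passed. At ZT4, 8, 16 and 20, with 3 or 4 mice per group, 0 of 7 passed, where 30.3%, 3.66%, 17.7% and 5.48% of all genes passed, and 2, 1, 1 and 1 of the 7 had an unadjusted p under 0.05 in edgeR. Angptl4 at ZT20 was at 1.51 ± 0.53 (adjusted p = 0.0899).

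**Figure D2:**
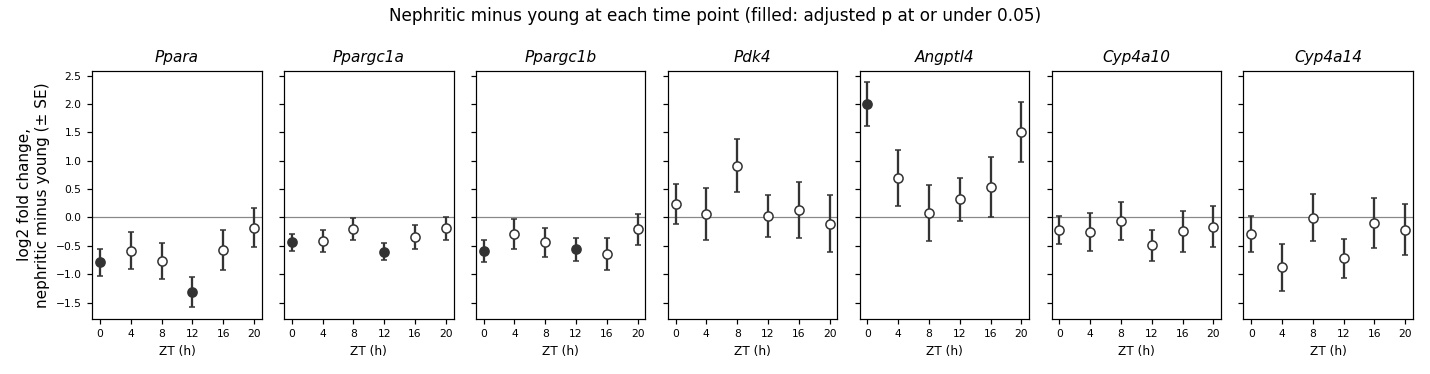
Log2 fold change, nephritic minus young, with SE bars against Zeitgeber time in hours, in 1 panel per gene on a shared vertical axis, filled where the adjusted p was at or under 0.05. Angptl4 runs from 2.00 at ZT0 to 0.32 at ZT12 and back to 1.51 at ZT20, and Ppara is lowest at ZT12 (-1.32).

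ZT0 and ZT12 were the only times sampled in remission, so the difference between them was compared among the 3 diagnoses in one fit. Angptl4 was the gene whose ratio stood out. In young mice it was lower at ZT0 than at ZT12 by 1.92 on the log2 scale, nephritic mice had similar levels at both times, and remission mice again had little at ZT0 and much at ZT12, apart from mouse s9. Remission mice had 12.0, 13.9, 13.9 and 14.4 CPM at ZT0. At ZT12 they had 78.4, 97.5 and 98.3 CPM, and s9 had 9.87 CPM. Without s9 the remission times did not overlap. The remission ZT0 values lay within the young ZT0 range, which reached 51.0 CPM through mouse CR6LL. Each was above the young ZT0 median of 9.04 CPM.

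As tested, the ZT0 to ZT12 difference of Angptl4 passed in young mice (-1.92 ± 0.44, SE; adjusted p = 0.00718, edgeR) and none of the other 6 did (1 of 7, against 3.66% of all genes). In nephritic mice it was -0.24 ± 0.43 (adjusted p = 0.799), and 0 of 7 genes passed with edgeR, with DESeq2 or at an unadjusted p under 0.05, against 3.52% of all genes. In remission mice it was -2.38 ± 0.59 over all 8 mice (adjusted p = 0.184), with 0 of the 7 genes and 0.0475% of all genes passing, and 2 of the 7 genes (with Pdk4) at an unadjusted p under 0.05. Without s9 it was -2.74 ± 0.54 (adjusted p = 0.00776), with 1 of the 7 genes and 0.493% of all genes passing. Over all 8 mice it also passed with DESeq2 (-2.39, adjusted p = 0.00729). It did not pass in a fit of remission mice alone (-2.38, adjusted p = 0.487) or of nephritic and remission mice alone (-2.37, adjusted p = 0.53). Mouse s9 was left out for its Arntl level, after the data had been seen.

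The change of this difference between diagnoses was less certain. The nephritic difference exceeded the young one by 1.69 ± 0.61 (adjusted p = 0.254), and 0 of 7 genes passed, against 0.0772% of all genes. The remission difference was below the nephritic one by 2.14 ± 0.72 (adjusted p = 0.577), again with 0 of the 7 genes. DESeq2 called 0 of 7 in both comparisons, and Angptl4 was the 1 gene with an unadjusted p under 0.05 in each. In that comparison edgeR called 0% of all genes (0 genes of 16841), although 1199 had an unadjusted p under 0.05, and DESeq2 called 7. Without s9 the value was -2.51 ± 0.65 (adjusted p = 0.226), with 0.00595% of all genes passing, a single gene, and 1616 genes with an unadjusted p under 0.05. The remission and young differences were -0.46 ± 0.71 apart (adjusted p = 0.998), with an SE larger than the difference. The comparisons of nephritic with young and of remission with nephritic mice share the nephritic mice.

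At ZT0 alone, Angptl4 was lower in remission than in nephritic mice (log2 difference -1.98 ± 0.55 with SE, adjusted p = 0.0115, edgeR). At ZT12, with s9 included at 9.87 CPM, the difference was 0.17 ± 0.51 (adjusted p = 0.845). Of the 7 nephritic mice at ZT0, each was above every remission mouse, the lowest at 14.8 CPM against 14.4 CPM. The other nephritic mice at ZT0 had 26.7, 49.8, 59.3, 71.4, 80.2 and 101 CPM. Values of the other genes described here, and the share of all genes passing, are not given for these contrasts. Averaged over ZT0 and ZT12, 37.8% of all genes differed in level between remission and nephritic mice.

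**Figure D3:**
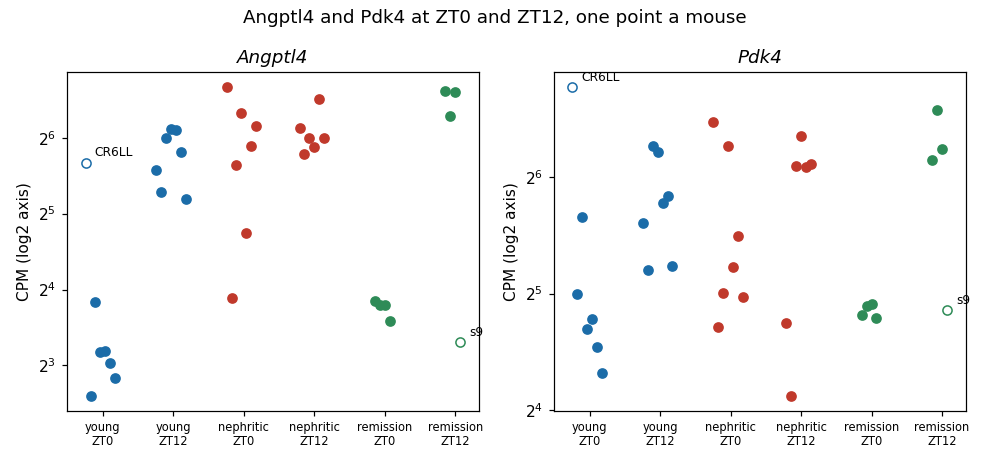
Level of Angptl4 and Pdk4 in CPM on a log2 axis at ZT0 and ZT12 in young, nephritic and remission mice, with 1 point per mouse and open circles for young mouse CR6LL and remission mouse s9. Remission Angptl4 is 12.0 to 14.4 CPM at ZT0 and 78.4 to 98.3 CPM in 3 mice at ZT12, with s9 at 9.87 CPM.

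Pdk4 had a like picture with less support. Remission mice had 27.7, 28.2, 29.8 and 30.1 CPM at ZT0 and 70.6, 75.7 and 95.3 CPM at ZT12, with s9 at 29.1 CPM. The difference was -1.21 ± 0.49 with s9 (adjusted p = 0.695) and -1.46 ± 0.50 without it (adjusted p = 0.256), and did not pass. In young mice it was -0.44 ± 0.37 and in nephritic mice -0.22 ± 0.38. Ppara in remission mice was 58.4, 66.4, 78.2 and 89.6 CPM at ZT0 and 71.5 (s9), 72.9, 145 and 198 CPM at ZT12, so that the 2 times overlapped (-0.73 ± 0.39, adjusted p = 0.774). Its young difference of -0.55 ± 0.29 did not pass in the shared fit (adjusted p = 0.409) and did in the fit of young mice alone (-0.54, adjusted p = 0.00174). Cyp4a10 and Cyp4a14 had remission differences of 0.09 ± 0.38 and 0.08 ± 0.47.

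In level, averaged over ZT0 and ZT12, Ppargc1b was higher in remission than in nephritic mice by 0.51 ± 0.19 (SE; adjusted p = 0.0349, edgeR), the only one of the 7 to pass, where 37.8% of all genes did. Its values were 13.5 to 22.1 CPM (median 16.1) in remission, against 5.75 to 18.3 CPM in nephritic mice at all times. It did not pass without s9 (0.47, adjusted p = 0.0692) or with a run term bridged by the repeat libraries (0.24, adjusted p = 0.528). In nephritic and remission mice fitted alone it did not pass (0.29, adjusted p = 0.18) and Angptl4 did (-1.04, adjusted p = 0.0406). In the main fit Angptl4 was lower by 0.90 ± 0.38 (adjusted p = 0.057), and without s9 its difference was -0.72 (adjusted p = 0.103, edgeR). Against young mice, Ppargc1a was lower in remission by 0.39 ± 0.15 (adjusted p = 0.041), with 64.0 to 78.9 CPM (median 74.6), the only one of the 7 to pass, where 41.6% of all genes did. It did not pass with the repeat libraries in place of their originals (-0.36, adjusted p = 0.0607). Ppara was at -0.65 ± 0.27 (adjusted p = 0.0517). Proximal tubule markers summed to 9025 to 13472 CPM in remission, against medians of 9663 CPM in nephritic and 15452 CPM in young mice.

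Within the nephritic group the 7 genes were set against Lcn2, a transcript made by injured tubule cells, which ranged from 4.79 to 702 CPM over the 27 mice. Ppara, Ppargc1a, Ppargc1b, Cyp4a10 and Cyp4a14 were lower where Lcn2 was higher, Angptl4 was higher, and Pdk4 did not follow it. Pearson's r of log2 CPM was -0.70 for Ppara (rho -0.77, permutation p = 5e-05), -0.78 for Ppargc1a (rho -0.80, permutation p = 1e-05), -0.69 for Ppargc1b (rho -0.70, permutation p = 8e-05), -0.73 for Cyp4a10 (rho -0.76, permutation p = 1e-05) and -0.74 for Cyp4a14 (rho -0.83, permutation p = 1e-05). For Angptl4 r was 0.57 (rho 0.59, permutation p = 0.00176) and for Pdk4 0.07 (rho 0.06, permutation p = 0.743). The p-values belong to r, come from 100000 permutations, two-sided, and cannot be smaller than 1e-05. The rho p-values were 1e-05 for Ppara, Ppargc1a and Cyp4a14, 8e-05 for Ppargc1b, 4e-05 for Cyp4a10, 0.00131 for Angptl4 and 0.78 for Pdk4. Adjusted over the 7 relations tested, 6 passed, with the largest adjusted p of the 6 at 0.00205 for r (Angptl4) and 0.00153 for rho, and 0.743 for Pdk4. Many genes followed Lcn2 as closely. Of 16871 other genes, 9.1% had an r as low as the weakest of the 5 negative ones, that of Ppargc1b, and 16.2% an r as high as that of Angptl4.

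The relation to Lcn2 was the same in kind after the 2 mice farthest from the median of Lcn2 were left out, with r of -0.69 for Ppara, -0.76 for Ppargc1a, -0.69 for Ppargc1b, -0.69 for Cyp4a10, -0.70 for Cyp4a14, 0.58 for Angptl4 and 0.05 for Pdk4. Within the 22 nephritic mice of the second sequencing set, r was -0.74 for Ppara, -0.77 for Ppargc1a, -0.62 for Ppargc1b, -0.67 for Cyp4a10, -0.80 for Cyp4a14, 0.44 for Angptl4 (permutation p = 0.043, adjusted p = 0.0501) and 0.12 for Pdk4. The first set held only 5 nephritic mice and gives no value of its own. Taking deviations from the mean of each time point and set, r was -0.67 for Ppara, -0.78 for Ppargc1a, -0.74 for Ppargc1b, -0.70 for Cyp4a10, -0.68 for Cyp4a14, 0.64 for Angptl4 and 0.21 for Pdk4. Proximal tubule markers also differ among these mice, and their part in the relation was not tested.

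**Figure D4:**
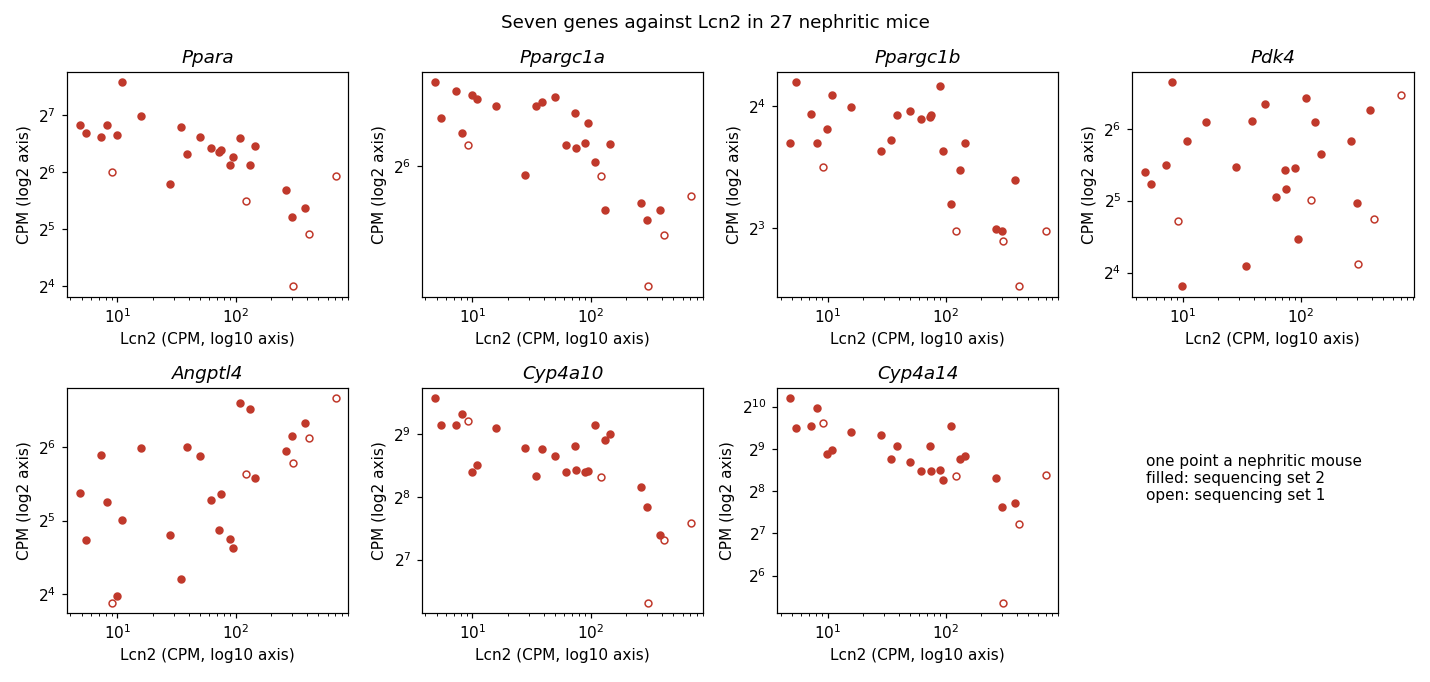
Level of each gene in CPM (log2 axis) against Lcn2 in CPM (log10 axis), 1 point per nephritic mouse (n = 27), filled for the second and open for the first sequencing set. Points of Ppargc1a run downwards from left to right (r = -0.78), those of Angptl4 upwards (r = 0.57), and those of Pdk4 in neither direction (r = 0.07).

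The genes also moved together differently in the 2 groups. These correlations are descriptions over mice that share time points and library effects. Over the 30 young mice Ppara correlated with Angptl4 (r = 0.67) more than with Cyp4a14 (r = -0.29) or Cyp4a10 (r = -0.28). Over the 27 nephritic mice the values were -0.31 with Angptl4, 0.82 with Cyp4a14 and 0.78 with Cyp4a10, and 0.89 with Ppargc1a, which had been 0.46 in young mice. Angptl4 and Pdk4 correlated in both groups (0.48 and 0.62), and Cyp4a10 and Cyp4a14 were closest of all (0.88 and 0.95).

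Among 13851 genes with at least 1 CPM on average in young mice, the gene most like Ppara was Cpt1a, the rate-limiting enzyme of fatty acid entry into mitochondria (r = 0.91 over 30 young mice, 0.90 over 27 nephritic mice), followed by Anxa7 (0.87 and 0.07) and Eif4b (0.86 and 0.43). The genes most like Angptl4 were Cpt2, a further carnitine enzyme (0.87 and -0.34), Rab30 (0.83 and -0.05) and Nfib (0.82 and -0.31). All were picked for their r in young mice, so a lower r in nephritic mice is no finding. Pdk4 was nearest to Serinc3 (0.74 and 0.39), Ankrd29 (0.74 and 0.24) and Sult1d1 (0.71 and 0.38). Ppargc1a was nearest to Asb7 (0.84 and 0.66), Vldlr (0.81 and 0.88) and Klhl24 (0.81 and 0.62), and Ppargc1b to Zcchc14 (0.82 and 0.78) and Ddn (0.80 and 0.68). Besides each other, Cyp4a10 was nearest to Net1 (0.75 and 0.14) and Sat1 (0.72 and -0.59), and Cyp4a14 to Cyp4a12a (0.76 and -0.16) and 1500015A07Rik (0.72 and -0.14).

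Other genes of the pathway were taken from lists of known targets and partners. Of 54 PPAR-alpha target genes tested in young mice, 41 varied over time, among them the carnitine carrier Slc25a20 (adjusted p = 3.41e-08), the peroxisomal reductase Decr2 (4.94e-08), Cyp4a32 (1.08e-07) and Cyp4a31 (5.04e-07, edgeR), against 39.8% of all genes tested. In nephritic mice 5 of 55 varied, against 21.6% of all genes, namely Abcd2, Cyp4a12a, Slc27a1, Fabp1 and, chosen after its value was seen, Acaa1a (adjusted p = 0.047). The time course differed for 10 of 55 (6.27% of all genes), including the liver-type transcription factor Creb3l3 (adjusted p = 0.00928), Cyp4a12a (0.00958), the fatty acid binding protein Fabp1 (0.024) and the fatty acid transporter Cd36 (0.0247). At ZT0, 27 of 55 targets passed, against 39.5% of all genes, with 20 lower and 7 higher in nephritic mice. At ZT12, 49 of 55 passed, against 50% of all genes, with 45 lower and 4 higher.

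In level, 44 of the 55 targets differed between nephritic and young mice, 39 lower and 5 higher (33.9% and 28.1% of all genes). The median log2 difference of the 55 was -0.37, against -0.03 over all genes tested and -0.76 over the 12 proximal tubule markers. Acot4 was lower (-0.64 ± 0.09, adjusted p = 1.08e-08, edgeR). Among the higher ones were Cyp4a12a (1.97 ± 0.20, adjusted p = 6.57e-12) and Cyp4a12b (2.69 ± 0.33, adjusted p = 1.23e-09), which are close relatives of Cyp4a10 and Cyp4a14, better known as androgen-dependent than as PPAR-alpha targets. The mitochondrial carrier Ucp2 was higher as well (0.81 ± 0.10, adjusted p = 1.22e-09). Cyp4a12a and Cyp4a12b are near-identical copies, so the split of reads between them is uncertain. In remission against nephritic mice 16 of 54 targets passed (37.8% of all genes), 11 higher and 5 lower, with Cyp4a12b at -2.98 ± 0.60 (adjusted p = 0.000274), Cyp4a12a at -1.50 ± 0.33 (adjusted p = 0.000689), Cd36 at 0.82 ± 0.18 (adjusted p = 0.000679) and Fabp3 at 0.55 ± 0.12 (adjusted p = 0.00066). Against young mice 9 of 54 passed (41.6% of all genes), 2 higher and 7 lower.

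The shares of all genes just given also stand beside the counts of the next lists, namely 39.8% and 21.6% over time in young and nephritic mice, 6.27% in time course, 33.9% lower and 28.1% higher in level, and 37.8% and 41.6% in remission against nephritic and young mice. Among 26 partners and coregulators, 14 varied over time in young mice, led by the sister receptor Ppard (adjusted p = 1.23e-14, edgeR), and 11 in nephritic mice. The time course differed for 4, including Ppard (adjusted p = 0.00352). In level 17 were lower and 4 higher in nephritic mice (median -0.20), among them Perm1, a muscle and mitochondrial partner of PGC-1 (-0.87 ± 0.12, adjusted p = 1.22e-08), the obligate partner Rxra (-0.34 ± 0.05, adjusted p = 2.25e-08) and Esrrg (-0.48 ± 0.07, adjusted p = 8.39e-08). The third coactivator of the PGC-1 family, Pprc1, was higher (0.48 ± 0.07, adjusted p = 6.14e-08), unlike Ppargc1a and Ppargc1b. In remission against nephritic mice 7 of 26 passed, 4 higher and 3 lower, and against young mice 6 of 26, 1 higher and 5 lower.

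Fasting genes under FOXO factors and glucocorticoids gave a further view of the same hours. Of 15, 13 varied over time in young mice, led by Tsc22d3 (adjusted p = 7.63e-14) and Fkbp5 (adjusted p = 4.12e-11, edgeR), both glucocorticoid targets, and 5 in nephritic mice. The time course differed for 5, including Fkbp5 (adjusted p = 0.00557) and Tsc22d3 (adjusted p = 0.0351). In remission mice without s9, Fkbp5 (-2.20 ± 0.33, adjusted p = 0.000374), Tsc22d3 (-1.95 ± 0.40, adjusted p = 0.0114) and Ddit4 (-1.23 ± 0.29, adjusted p = 0.0418) were lower at ZT0 than at ZT12, as Angptl4 was (3 of 15, against 0.493% of all genes). Over all 8 mice 0 of 15 passed, against 0.0475%. Of 54 PPAR-alpha target genes, 0 differed between ZT0 and ZT12 in remission mice, with or without s9. In young mice 5 of 54 did, all lower at ZT0 (3.66% of all genes), and in nephritic mice 0 of 54 (3.52%). In level 9 of the 15 were lower and 3 higher in nephritic mice, with Pck1, the entry enzyme of gluconeogenesis, at -0.99 ± 0.20 (adjusted p = 3.45e-05) and Ddit4 at 0.62 ± 0.10 (adjusted p = 1.18e-06). Of the 15, 2 were higher in remission than in nephritic mice, Igfbp1 (1.17 ± 0.32, adjusted p = 0.0044) and Foxo3 (0.83 ± 0.27, adjusted p = 0.0159), and 3 differed between remission and young mice, 2 higher and 1 lower.

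The next list held genes of the fed state that make fatty acids. Of 13, 12 varied over time in young mice and 6 in nephritic mice, and 1, Mlxipl, the glucose-sensing factor ChREBP, differed in time course (adjusted p = 0.00962, edgeR). In young mice Srebf1, Fasn, Scd2 and Acaca were lowest at ZT8, like all 8 adipocyte markers, whereas Mlxipl and Pklr were highest then. The part of fat tissue in the rhythm of this list was not tested. In level 11 of 13 were lower and 0 higher in nephritic mice, with a median of -0.59 beside -0.76 for the 12 proximal tubule markers. Among them were Me1 at -0.59 ± 0.08 (adjusted p = 2.79e-09), Srebf1 at -0.50 ± 0.08 (adjusted p = 5.64e-07) and Acly at -0.37 ± 0.06 (adjusted p = 1.61e-06). In remission 3 of 13 differed from nephritic mice, 2 higher and 1 lower, and 8 of 13 were lower than in young mice. Among 9 relatives and partners of Pdk4 and Angptl4, 5 varied over time in young and 0 in nephritic mice, and 2 differed in time course, Angptl2 and Pdk1 (adjusted p = 0.0371 for Pdk1). In level 7 of the 9 were lower and 0 higher in nephritic mice, including Pdk2 (-0.65 ± 0.10, adjusted p = 1.75e-07), Pdk1 (-0.38 ± 0.07, adjusted p = 1.74e-06) and Lpl, the lipase that ANGPTL4 inhibits (-0.85 ± 0.13, adjusted p = 3.16e-07). Lpl was higher in remission than in nephritic mice (1.07 ± 0.25, adjusted p = 0.00107), 1 of 5 of these 9 that were higher there, and 2 were higher than in young mice.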

How the data were processed

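Whole perfused kidneys were measured by RNASeq in 65 original libraries, each from a different mouse, and 4 repeat libraries. The deposited values are raw read counts per gene symbol, 1 file per library. By the methods, the authors kept uniquely aligned reads on exons and junctions. The submitters' processing notes name mm10 and HISAT, whereas the methods name a Burrows-Wheeler aligner. Of 24538 symbols, 15 had no value. No other kind of library or array was analysed here.

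The genes and lists were chosen with earlier results of these data known. Mice were grouped by diagnosis and time label. Within each fit, a gene needed a summed count of 100 or more to be tested. Tests used edgeR 4.0.16 in R 4.3.3 (TMM factors, quasi-likelihood F test, Benjamini-Hochberg over all genes tested, adjusted p of at most 0.05). Models were time plus sequencing set within young or nephritic mice, diagnosis by time plus set for the difference in time course, diagnosis plus time plus set for level, and diagnosis by time plus set for ZT0 and ZT12. Log2 CPM used a prior count of 2. Cosines of 24 h were fitted by least squares, as a description. Permutation tests drew 100000 orders. The genes above were named in every comparison, with up to 4 genes of a list by lowest p and the 3 genes most correlated with each in young mice, apart from 1 result that is not reported here. Total counts were 13311278 to 48075977 per original library. DESeq2 1.42.0, other scalings, filters and covariates, and each mouse left out, were tried.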

Additional observations from a re-analysis of the deposited data

Results flagged for a closer look

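Over the 7 genes, 84 sets of values, from 12 groups of 4 to 7 mice at one time point, were searched for a highest or lowest mouse far from the rest (Dixon's 95% criterion). In all, 5 were found. Chance gives about 1 in 20 sets, so this number is near what chance alone gives. Ppargc1a was 65.2 CPM in nephritic ZT8 mouse RX10RU, below 86.0, 89.1 and 91.1 CPM in the other 3, and this mouse also stood apart in Arntl. Ppargc1a was 67.2 CPM in remission ZT0 mouse s8, below 78.4, 78.9 and 78.9 CPM. Angptl4 was 51.0 CPM in young ZT0 mouse CR6LL, where the other 6 had 6.07 to 14.3 CPM. Angptl4 was 9.87 CPM in remission ZT12 mouse s9, where the others had 78.4, 97.5 and 98.3 CPM, and this mouse also stood apart in Arntl. Cyp4a10 was 512 CPM in nephritic ZT4 mouse RX1OLL, above 337, 340 and 343 CPM.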

How the results depend on the processing

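Outside the fits that left out 1 mouse each, 25 counts of the 7 genes moved by more than 1.5 times, or to or from 0. A further 102 values stayed the same. They were counts within that limit and cosine amplitudes with a prior count of 0.5, which moved by less than the residual SD. In the joint fit, 2 genes varied over time in young mice. Angptl4 was the 1 gene whose time course differed with DESeq2, in the second set alone, without RX10RU and s9, and without these and CR6LL. With the proximal tubule covariate 1 gene, Cyp4a10, differed in level, and Cyp4a10 (0.34) and Cyp4a14 (0.26) changed sign, a change that was counted for a gene past the threshold in either fit. With each diagnosis alone, 2 genes differed between ZT0 and ZT12 in young mice. In remission 1 did with DESeq2, without s9, without RX10RU and s9, and without the 3 mice. Without the 3 mice, the ratio differed for 1 gene, Angptl4, between nephritic and young mice (adjusted p = 0.00588) and for 1 between remission and nephritic mice (adjusted p = 0.0478, edgeR). CR6LL had been picked on its Angptl4 and Pdk4 levels, the outcome itself. The level differed between remission and nephritic mice for 2 genes with DESeq2 and for 0 without s9, without RX10RU and s9, with the bridged run term or with repeat libraries in place, with or without the RX11RU repeat. Between remission and young mice it differed for 2 with RLE size factors, DESeq2 or no filter, and for 0 with repeat libraries in place, with or without the RX11RU repeat. A count that stayed at 1 could hide a change of gene. In nephritic and remission mice alone, and without the 3 mice (adjusted p = 0.0106), Angptl4 in place of Ppargc1b differed in level between remission and nephritic mice, and without the 3 mice Angptl4 (adjusted p = 0.0377) in place of Ppargc1a (0.0531) differed between remission and young mice. The causes were not tested. The settings without RX10RU and s9, without the 3 mice, without the RX11RU repeat and with each diagnosis alone were chosen after seeing the data. Remission mouse s9 was not in the fits of young and nephritic mice, and RX10RU was not in those of ZT0 and ZT12.

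With 1 mouse left out at a time, 5 to 6 genes varied over time in young and 0 to 0 in nephritic mice, 0 to 1 differed in time course and 4 to 6 in level. Between ZT0 and ZT12, 1 to 1 differed in young, 0 to 0 in nephritic and 0 to 1 in remission mice, and the ratio differed for 0 to 1 (1 without CR6LL) and 0 to 0. The level differed for 0 to 2 genes between remission and nephritic mice and 0 to 2 between remission and young mice, and 6 to 6 were related to Lcn2. Angptl4 in remission had an adjusted p of 0.00776 without s9 and 0.513 without s12.

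Counts over all genes moved by more than 1.5 times in these cases. Time in young mice went from 6583 to 3721 in the joint fit. Time in nephritic mice went from 3646 to 5646 with DESeq2, 1994 without the set term and 362 with cosine terms. The difference in time course went from 1099 to 2186 with DESeq2, 1715 in the second set, 121 with cosine terms and 693 with repeats. The level count went from 10877 to 4269 with the proximal tubule covariate. The ZT0 and ZT12 count in young mice went from 617 to 2402 in young mice alone. In nephritic mice it went from 592 to 1043 with DESeq2, 17 in nephritic and remission mice alone and 111 with repeats. In remission it went from 8 to 40 with DESeq2, 83 without s9, 86 without the 3 mice, 0 with fewer groups fitted and 4 with repeats. The ratio count of nephritic against young mice went from 13 to 148 with DESeq2, 50 without s9, 39 with repeats and 82 without the 3 mice, and that of remission against nephritic mice from 0 to 7, 1 and 5 with DESeq2, without s9 and without the 3 mice. The level count of remission against nephritic mice went from 6370 to 4031 with the bridged run term and 3745 without the RX11RU repeat.

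No paired analysis was possible because the labels number no replicates and each original library came from a different mouse. At 3 or 4 mice a time point, and with 4 remission mice per time, small differences were not detectable, and remission libraries were the shallowest.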
